A study of Mus musculus with 4 samples.

Results

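The synaptonemal complex and the meiotic cohesin complex hold paired chromosomes together in spermatocytes, and their transcripts were followed here in the IGF2BP3 eCLIP-seq data of mouse testes. The 10 genes were chosen by name for their place in these structures, 7 of the synaptonemal complex (Sycp1, Sycp2, Sycp3, Syce1, Syce2, Syce3 and Tex12) and 3 of meiotic cohesin (Smc1b, Rec8 and Stag3), out of 55,450 annotated mouse genes. A cluster of reads was given to a gene when its centre lay inside the gene span on the gene's own strand. This gave 452 of 337,234 clusters in replicate 1 and 355 of 216,354 clusters in replicate 2.

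Whole testes of wild type C57BL/6 male mice at 8 weeks of age were crosslinked with ultraviolet light and lysed, with no other treatment. The 2 IP libraries hold RNA recovered with an IGF2BP3 antibody, and the 2 SMInput libraries hold size-matched RNA of the same lysate that did not go through the antibody, so 4 libraries were compared in 2 replicates. The labels name the replicate number but not the animals behind each lysate. The testes held germ cells and somatic cells together, so the number of cells with a transcript and the amount of RNA per cell cannot be told apart.

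As background, the synaptonemal complex is a ladder-like protein scaffold that forms between homologous chromosomes in meiotic prophase. Its lateral elements lie along the chromosome axes, its transverse filaments bridge the gap, and its central element joins the filaments in the middle. Meiotic cohesin is a ring of specialised subunits that holds sister chromatids together and forms the base on which the axes are built. IGF2BP3 is an RNA-binding protein of the IGF2BP family, whose members bind many messenger RNAs, often in the 3′UTR.

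The depth was estimated from the listed values as 5,133,438 IP reads and 8,706,391 SMInput reads in replicate 1, and 4,637,612 IP reads and 16,696,122 SMInput reads in replicate 2. These totals are uncertain in size, since the next best pair was 10,266,876 and 17,412,782 reads in replicate 1 and 6,956,418 and 25,044,183 in replicate 2, with the same ratio of IP to SMInput. The log2(fold change) of a cluster is the ratio of its IP reads to its SMInput reads, each relative to its library. A cluster was counted as significant at a log2(fold change) of at least 2, which is a 4-fold ratio, together with a −log10(P value) of 2 or more. The tissue label was compared with marker genes. All 6 germ cell markers, all 4 spermatocyte markers, all 4 Sertoli cell markers and all 4 Leydig cell markers had clusters in both replicates. In all, 12,312 protein-coding genes had clusters in both replicates, and no marker of another tissue was counted. The presence of clusters therefore does not test the label. The germ cell markers had 139 and 130 clusters, the spermatocyte markers 80 and 73, the Sertoli cell markers 117 and 109, and the Leydig cell markers 31 and 36.

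Few clusters of the synaptonemal complex and cohesin genes were significant. In replicate 1 these were 10 of 452 (2.21%, 95% Wilson interval 1.21 to 4.02), beside 4.92% of all clusters. In replicate 2 they were 14 of 355 (3.94%, 2.36 to 6.51), beside 13.2% of all clusters. The median log2(fold change) of the members was 0.76 in replicate 1 and 0.53 in replicate 2, while that of all clusters was 1.50 and 1.53. Both the share and the median of the members were therefore below those of all clusters in each replicate.

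By gene, 4 of 10 members had a significant cluster in replicate 1 (Sycp2, Syce2, Tex12 and Smc1b) and 5 of 10 in replicate 2 (Sycp1, Sycp2, Syce2, Smc1b and Stag3). Among the 12,312 protein-coding genes with clusters in both replicates, the shares were 46.1% and 64.6%. Sycp2, Syce2 and Smc1b had significant clusters in both replicates, 3 of 10, beside 39.1% of protein-coding genes. Syce2 was the 1 member of 10 whose significant clusters of the replicates overlapped, beside 16.6% of protein-coding genes. Counted by cluster, 1 of 452 member clusters of replicate 1 was significant and overlapped a significant cluster of replicate 2, beside 1.62% of all clusters of replicate 1. Sycp3, Syce1, Syce3 and Rec8 had no significant cluster in either replicate.

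With the fold threshold lowered to a log2(fold change) of 1, 20 member clusters (4.42%, 95% Wilson interval 2.88 to 6.74) passed in replicate 1 beside 7.24% of all clusters. In replicate 2, 29 (8.17%, 5.75 to 11.5) passed beside 18.4%. In coding sequence 7 of 220 (3.18%, 1.55 to 6.42) passed in replicate 1 beside 9.78%, and 5 of 188 (2.66%, 1.14 to 6.07) in replicate 2 beside 16.1%. Pooled and in coding sequence, the interval of the members was thus below the share of all clusters in each replicate. These intervals treat clusters as independent, which clusters of the same gene are not. Sycp1 and Sycp2 supplied 132 and 110 of the member clusters in replicate 1, and 108 and 82 in replicate 2. In 3′UTRs 4 of 21 passed, with an interval from 7.67% to above the 27.3% of all 3′UTR clusters, and 10 of 22 (45.5%, 26.9 to 65.3) beside 47.5%. In introns 8 of 203 (3.94%, 2.01 to 7.58) passed beside 2.09%, and 14 of 138 (10.1%, 6.14 to 16.3) beside 11.3%. For 3′UTRs and introns the interval of the members held the share of all clusters of the region in each replicate.

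**Figure D1:**
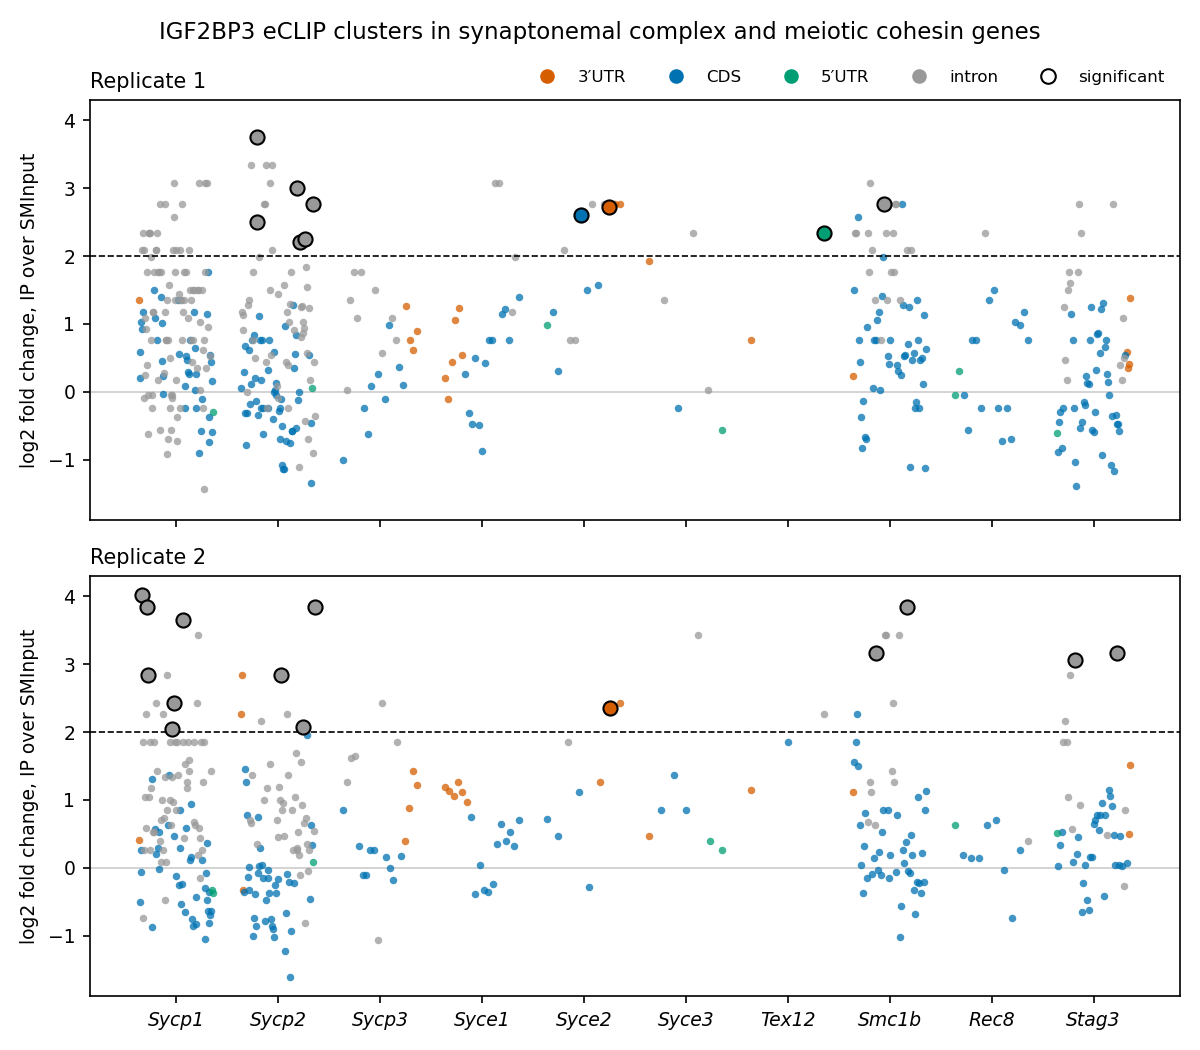
Each point is a cluster of a member gene, placed by its order along the chromosome within the gene, with its log2(fold change) of IP over SMInput on the vertical axis, replicate 1 above and replicate 2 below. Colours give the region, ringed points are the 10 and 14 significant clusters, and the dashed line marks the threshold of 2.

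The clusters lay mainly in coding sequence and introns. In replicate 1, 220 of the 452 member clusters were in coding sequence, 203 in introns, 21 in 3′UTRs and 8 in 5′UTRs. In replicate 2, the numbers were 188, 138, 22 and 7 of 355. None of these clusters also had its centre in another annotated gene on the same strand.

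In coding sequence, 1 of 220 member clusters was significant in replicate 1 (0.455%) beside 5.28% of all coding sequence clusters. In replicate 2 it was 0 of 188, which allows a share of up to 1.60%, beside 7.96%. The median log2(fold change) of member coding sequence clusters was 0.25 and 0.05, against 0.76 and 0.93 over all coding sequence clusters. Members differed around this median. The coding sequence clusters of Syce2 had a median of 1.50 in replicate 1 (5 clusters) and 0.60 in replicate 2 (4 clusters), and Tex12 had 0 in replicate 1 and 1 in replicate 2, with 3 IP and 3 SMInput reads and 1.85 (−1.05 to 4.75).

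In 3′UTRs, 1 of 21 member clusters was significant in replicate 1 (4.76%, 0.846 to 22.7) beside 19.4% of all 3′UTR clusters, and 1 of 22 in replicate 2 (4.55%, 0.807 to 21.8) beside 34.5%. The median of the member 3′UTR clusters was 0.76 and 1.14, against 1.76 and 1.85 over all 3′UTR clusters. Both 3′UTR clusters that passed belonged to Syce2. The interval of the members held the share of all 3′UTR clusters in replicate 1 and was below it in replicate 2. In introns, 7 of 203 member clusters were significant in replicate 1 (3.45%, 1.68 to 6.95) beside 1.94%, and 13 of 138 in replicate 2 (9.42%, 5.59 to 15.5) beside 10.8%. The interval of the members held the share of all introns in each replicate. Introns held 70.0% of the significant member clusters in replicate 1 and 92.9% in replicate 2, against 22.8% and 38.1% of all significant clusters.

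The reads behind these values were summarised for exons and introns apart. Member exon clusters with recovered read numbers had a median of 13 SMInput reads in replicate 1 and 26 in replicate 2, against 5 and 10 over all exon clusters. From these reads, the upper bound of the 95% interval of the fold change stayed below 4-fold in 81 of 153 member exon clusters of replicate 1 (52.9%) and 88 of 125 of replicate 2 (70.4%). Over all exon clusters the shares were 16.8% and 21.5%. In the 81 and 88 exon clusters the interval thus lay under the fold threshold, as far as counting error goes. Members had more SMInput reads per exon cluster, and whether the gap in shares follows from read depth was not tested. Member intron clusters had a median of 3 and 7 SMInput reads, against 2 and 3 over all intron clusters. Their upper bound stayed below 4-fold in 15 of 171 (8.77%) and 21 of 130 (16.2%), against 1.33% and 3.43% of all intron clusters. The significant intronic clusters of members rested on 8 to 19 IP reads in replicate 1 and 4 to 14 in replicate 2.

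By the sum of IP and SMInput reads, the shares of members and of all clusters were closest, in percentage points, where reads were few. Clusters listed at 0 have no recovered reads and are left out of these counts. They were 27.9% and 27.3% of member clusters in replicates 1 and 2, against 10.6% and 7.52% of all clusters. With 1 to 9 reads, 1 of 125 member clusters was significant in replicate 1 (0.80%, against 1.24% of all clusters) and 7 of 50 in replicate 2 (14.0%, against 12.4%). With 10 to 19 reads it was 5 of 75 (6.67%, against 13.6%) and 5 of 76 (6.58%, against 15.4%). With 20 to 39 reads it was 3 of 82 (against 3719 of 24,770) and 1 of 58 (against 4440 of 30,528). With 40 reads or more it was 1 of 42 (against 2928 of 13,918) and 1 of 71 (against 3677 of 20,681), and Syce2 supplied this cluster in each replicate.

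The lateral elements are built from SYCP2 and SYCP3, which coat the chromosome axes. Sycp2, on the minus strand of chromosome 2, had 110 clusters with 6 significant in replicate 1 and 82 clusters with 3 significant in replicate 2. All 9 significant clusters lay in introns, and none of them overlapped between the replicates. The 53 and 40 coding sequence clusters had a median log2(fold change) of −0.11 and −0.24, and none of them was significant.

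In replicate 1, the significant Sycp2 cluster with the most IP reads lay in intron 7 at chr2:178395448-178395507 (mm10). It had 19 IP reads and 4 SMInput reads, a log2(fold change) of 3.01 (95% interval 1.42 to 5.03) and a −log10(P value) of 4.99. A cluster in intron 6 had as many IP reads, with 7 SMInput reads and a log2(fold change) of 2.20 (0.89 to 3.70). The intron 7 cluster was overlapped in replicate 2 by a cluster with 7 IP reads, 21 SMInput reads and a log2(fold change) of 0.26 (−1.21 to 1.55), and it was not significant there. In replicate 2, the leading Sycp2 cluster lay in intron 6 at chr2:178400498-178400555, with 14 IP reads, 12 SMInput reads and a log2(fold change) of 2.07 (0.85 to 3.31). It was overlapped in replicate 1 by a cluster of 14 IP and 16 SMInput reads with a log2(fold change) of 0.57 (−0.58 to 1.70). The difference between the replicates was not tested at either place.

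Sycp3, which encodes the other main axis protein, had 22 and 20 clusters and no significant one. Its cluster with the highest fold in replicate 1 was in intron 1 (chr10:88461830-88461865; 1 of 2 clusters with this fold) with 6 IP reads, 3 SMInput reads and a log2(fold change) of 1.76 (−0.47 to 4.39). In replicate 2 it was in intron 4 (chr10:88466154-88466167) with 3 and 2 reads and 2.43 (−0.69 to 6.01). Both intervals reached below 0, so neither cluster was enriched beyond counting error. In the Sycp3 3′UTR some clusters passed the P value threshold without reaching the fold threshold. The 4 clusters there had log2(fold changes) from 0.61 to 1.26 in replicate 1, with 1 of 4 past the P value threshold, and from 0.39 to 1.42 in replicate 2, with 2 of 4 past it. The cluster at 1.26 in replicate 1 and that at 0.39 in replicate 2 lie before the 3′UTR of the transcript Sycp3-201, which starts at chr10:88472959. They count as 3′UTR by another transcript. The highest of replicate 2 (chr10:88473055-88473159) had 41 IP and 55 SMInput reads and a −log10(P value) of 5.93, with an interval of 0.80 to 2.03. At the same place in replicate 1 (chr10:88473058-88473152) there were 37 and 41 reads, a log2(fold change) of 0.61 (−0.07 to 1.29) and a −log10(P value) of 1.12, which did not pass. The place next to it passed the P value threshold in both replicates. In replicate 1 (chr10:88473153-88473219) there were 44 and 40 reads, a log2(fold change) of 0.90 and a −log10(P value) of 2.28. In replicate 2 (chr10:88473160-88473215) there were 42 and 65 reads, a log2(fold change) of 1.22 and a −log10(P value) of 4.72.

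The transverse filaments are made of SYCP1, a long coiled-coil protein that spans the complex. Sycp1 covers 117,602 bases of chromosome 3 on the minus strand and had 132 clusters in replicate 1, none significant, and 108 in replicate 2, 6 of them significant. All 6 lay in introns and rested on 4 to 9 IP reads. The one with the most IP reads was in intron 30 (chr3:102824419-102824572), with 9 IP reads, 2 SMInput reads and a log2(fold change) of 4.02 (1.75 to 7.27). The cluster that overlapped it in replicate 1 had 5 and 4 reads and a log2(fold change) of 1.08 (−1.13 to 3.42). In replicate 1, the highest fold of Sycp1 was a log2(fold change) of 3.08, shared by 4 clusters, of which the one in intron 22 at chr3:102866941-102867030 had 5 IP reads and 1 SMInput read and missed the P value threshold. The coding sequence clusters of Sycp1 had a median log2(fold change) of 0.46 in replicate 1 and −0.08 in replicate 2.

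The central element is assembled from SYCE1, SYCE2, SYCE3 and TEX12, which join and lengthen the filaments. Syce2 carried the site significant in both replicates. With both thresholds at 3 this call was lost, and by the nearest transcription start site the site was given to another gene. The gene lies on the plus strand of chromosome 8 and had 14 clusters with 2 significant in replicate 1, and 8 clusters with 1 significant in replicate 2. In replicate 1 the 3′UTR cluster at chr8:84887230-84887376 (mm10) had 39 IP reads and 10 SMInput reads. Its log2(fold change) was 2.73 (1.70 to 3.89) and its −log10(P value) 8.73. In replicate 2 the cluster at chr8:84887242-84887367 had 37 IP reads and 26 SMInput reads, with a log2(fold change) of 2.36 (1.59 to 3.14) and a −log10(P value) of 11.5. The intervals overlapped, and both lower bounds were below the threshold of 2, so enrichment over SMInput was clear of counting error in each replicate while a 4-fold ratio was not.

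The shared stretch of 126 bases lies in exon 5 of Syce2, from base 63 to base 188 of a 3′UTR of 1042 bases. Further along, the 3′UTR clusters between bases 721 and 762 in replicate 1 and between bases 668 and 685 in replicate 2 had 3 or 4 IP reads each and were not significant. The coding sequence of Syce2 gave a second significant cluster in replicate 1, with its centre in exon 3 (chr8:84883422-84883502), 18 IP reads, 5 SMInput reads and a log2(fold change) of 2.61 (1.13 to 4.39). At the same place in replicate 2 (chr8:84883429-84883509) there were 12 IP and 20 SMInput reads, a log2(fold change) of 1.11 (−0.05 to 2.21) and no significance. The intervals of the replicates overlapped here as well. The median log2(fold change) over all clusters of Syce2 was 1.83 and 1.19.

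**Figure D2:**
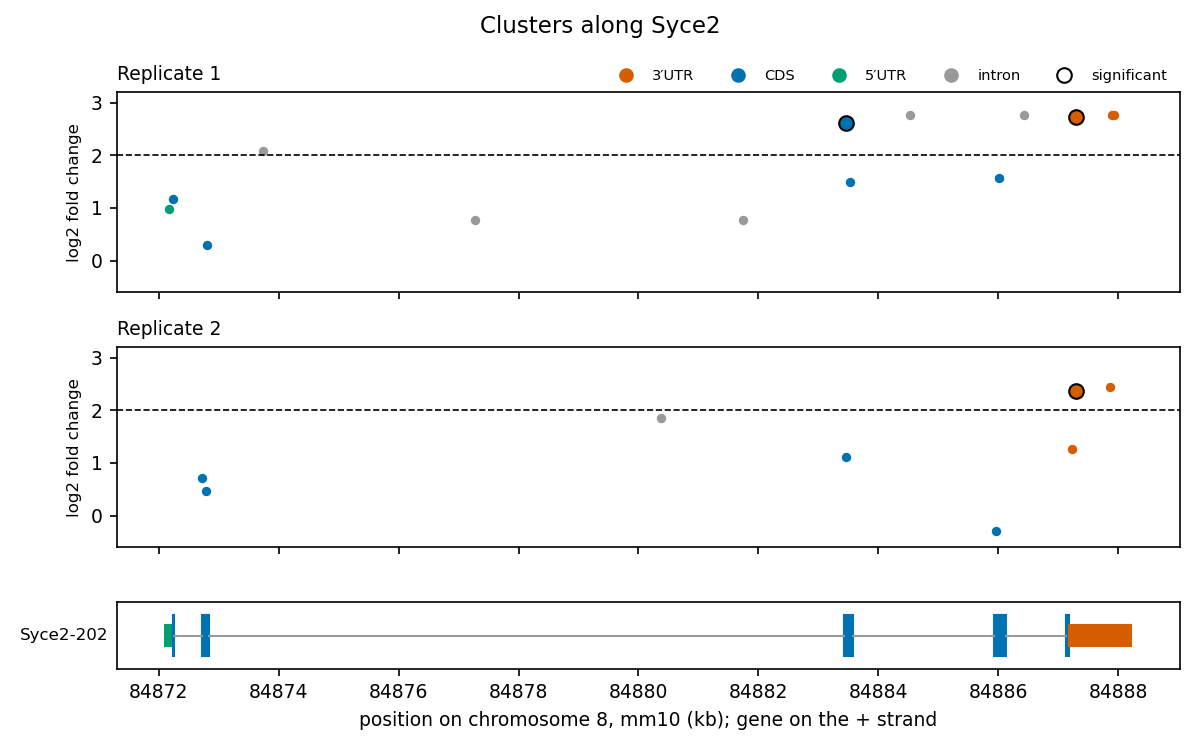
Clusters along Syce2 in replicate 1 (top) and replicate 2 (middle) by position on chromosome 8 (kb, mm10) and log2(fold change), with exons of the transcript Syce2-202 at the bottom (tall boxes coding sequence, low boxes UTRs). The ringed 3′UTR clusters, at 2.73 and 2.36, are above the dashed line at 2 in both replicates, and the exon 3 cluster is above it in replicate 1.

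Syce1 had 23 and 18 clusters, none significant, and its 3′UTR of 432 bases was covered by 6 clusters in each replicate. In replicate 2 all 6 passed the P value threshold, with log2(fold changes) from 0.96 to 1.26. In replicate 1, 2 of 6 passed it and the values ran from −0.10 to 1.23. The highest in replicate 2 was the cluster at chr7:140777469-140777537 with 30 IP and 45 SMInput reads and a log2(fold change) of 1.26 (0.55 to 1.96), and the place overlaps the highest 3′UTR cluster of replicate 1 (chr7:140777472-140777519; 36 and 26 reads; 1.23, 0.46 to 2.02). The Syce1 3′UTR was thus enriched along much of its length in replicate 2, at a ratio below 4-fold. The highest fold of Syce1 in replicate 1 was in intron 4 (chr7:140780088-140780111; 1 of 2 clusters with this fold), 5 IP reads to 1 SMInput read, a log2(fold change) of 3.08 (−0.08 to 8.65).

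Syce3 and Tex12 encode small proteins and gave few clusters. Syce3 had 6 and 7, none significant, and its highest folds came from intron 1, with 3 IP reads to 1 SMInput read in each replicate (log2(fold change) 2.35 at chr15:89408881-89408908 and 3.43 at chr15:89408993-89409024). Tex12 had 2 and 3 clusters. The 5′UTR cluster of Tex12 in exon 1 (chr9:50561225-50561265) was significant in replicate 1 with 12 IP reads, 4 SMInput reads and a log2(fold change) of 2.35 (0.62 to 4.44). No cluster of replicate 2 overlapped it, and the highest of that replicate, in intron 2 (chr9:50558696-50558744), had 4 and 3 reads and 2.26 (−0.30 to 5.03). The difference between the replicates was not tested.

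Meiotic cohesin differs from the mitotic ring by subunits used in germ cells. SMC1B is the meiotic arm of the ring, and Smc1b had 64 clusters with 1 significant in replicate 1 and 54 with 2 significant in replicate 2, all of them intronic. The cluster of replicate 1 was in intron 15 (chr15:85095334-85095444) with 8 IP reads, 2 SMInput reads and a log2(fold change) of 2.76 (0.44 to 6.04). The leading cluster of replicate 2 was in intron 18 (chr15:85089221-85089250) with 5 and 2 reads and 3.17 (0.56 to 6.56). None of these 3 was overlapped by a cluster of the other replicate, so the gene met the threshold in both replicates at different introns. The 3′UTR of Smc1b had a log2(fold change) of 0.23 (−0.72 to 1.15; 18 IP and 26 SMInput reads) in replicate 1 and 1.11 (0.37 to 1.83; 27 and 45 reads) in replicate 2.

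REC8 is the kleisin that closes the meiotic ring and is cut when chromosomes separate. Rec8 had 18 and 10 clusters, none significant. Its highest fold in replicate 1 was in intron 7 (chr14:55622102-55622113), 3 IP reads to 1 SMInput read and a log2(fold change) of 2.35, and in replicate 2 in exon 11 (chr14:55622794-55622888), 5 IP reads to 11 SMInput reads with a log2(fold change) of 0.71 (−1.17 to 2.35). The annotated 3′UTR of Rec8 has 34 bases, and no cluster had its centre there.

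STAG3 is the meiotic subunit that binds the kleisin. Stag3 had 61 clusters with none significant in replicate 1 and 45 with 2 significant in replicate 2. Both were intronic, the leading one in intron 7 (chr5:138291115-138291127) with 7 IP reads, 3 SMInput reads and a log2(fold change) of 3.07 (0.94 to 5.65). In replicate 1, the highest fold was in intron 29 (chr5:138307170-138307191; 1 of 2 clusters with this fold), 4 IP reads to 1 SMInput read and a log2(fold change) of 2.76, and missed the P value threshold. The 3′UTR cluster of Stag3 at chr5:138312196-138312356 in replicate 2 had 49 IP and 62 SMInput reads, a −log10(P value) of 7.69 and a log2(fold change) of 1.51 (0.94 to 2.07). In replicate 1, the last 3′UTR cluster (chr5:138312332-138312385) had 23 and 15 reads and a log2(fold change) of 1.38 (0.38 to 2.42). The other 3 clusters of the Stag3 3′UTR in replicate 1 did not pass the P value threshold, among them chr5:138312265-138312310, inside the cluster of replicate 2, with 11 and 14 reads and 0.41 (−0.87 to 1.66). Both clusters that passed it had fold estimates under the threshold of 2 and intervals that reached above it. The coding sequence of Stag3 had medians of −0.21 and 0.27.

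The replicates were set side by side over all member clusters that overlapped. Of the member clusters, 220 of replicate 1 (48.7%) and 218 of replicate 2 (61.4%) shared 1 or more bases with a member cluster of the other table, beside 24.9% and 37.3% of all clusters. Over the 248 overlapping member pairs, log2(fold change) correlated with r = 0.31 (Pearson) and rho = 0.31 (Spearman) as a description. Over the 93,525 pairs of all clusters r was 0.65 and rho 0.60. The pairs share libraries and genes and are not independent.

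The sequences under the clusters that matter most are given from GRCm38, the assembly of mm10, in the direction of the transcript from 5′ to 3′. They were chosen because they are the Syce2 sites and the leading intronic clusters of Sycp1 and Sycp2. Capitals mark matches to 4 short motifs searched on the cluster's strand alone. The first was GGAC, which holds the core of many m6A sites. The second was the motif GAACA and the next the motif AAACC. The last was CAT with any base but G after it, which can share bases with the motif GAACA. The Syce2 3′UTR line shows 30 bases of the shared site around the single match in it (chr8:84887319-84887348, plus strand). The Syce2 exon 3 line begins with intron bases, and the coding sequence starts at chr8:84883431.
Syce2 3′UTR: ggtttgaccctgcCATAagccttgccttag
Syce2 exon 3 cluster, chr8:84883422-84883502, plus strand: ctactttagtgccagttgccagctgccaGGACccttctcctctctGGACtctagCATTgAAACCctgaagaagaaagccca
Sycp2 intron 7 cluster, chr2:178395448-178395507, minus strand: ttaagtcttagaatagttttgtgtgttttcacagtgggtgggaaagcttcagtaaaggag
Sycp2 intron 6 cluster, chr2:178400498-178400555, minus strand: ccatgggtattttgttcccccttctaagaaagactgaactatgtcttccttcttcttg
Sycp1 intron 30 cluster, chr3:102824419-102824572, minus strand: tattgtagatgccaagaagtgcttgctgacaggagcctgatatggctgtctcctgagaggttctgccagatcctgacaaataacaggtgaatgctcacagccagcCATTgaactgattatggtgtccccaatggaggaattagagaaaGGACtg

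In windows of 100 bases around the centre of each cluster, GGAC occurred in 50 of 220 member coding sequence windows in replicate 1 (22.7%) and 45 of 188 in replicate 2 (23.9%). Over all coding sequence windows the shares were 33.0% and 32.8%. In 3′UTR windows of members GGAC occurred in 2 of 21 and 3 of 22, against 24.5% and 23.7% of all 3′UTR windows. CAT with any base but G after it occurred in 15 of 21 and 16 of 22 member 3′UTR windows, against 66.1% and 65.0%, and in 144 of 220 and 124 of 188 member coding sequence windows, against 63.2% and 62.7%. GAACA was found in 31 of 220 and 31 of 188 member coding sequence windows, against 11.3% and 11.3%, and AAACC in 22 of 220 and 14 of 188, against 8.12% and 7.90%. In 3′UTRs of members, GAACA was found in 1 of 21 and 0 of 22 windows, against 8.44% and 7.80%, and AAACC in 2 of 21 and 2 of 22, against 8.32% and 7.60%. In introns, GGAC occurred in 47 of 203 and 16 of 138 member windows (23.2% and 11.6%), against 21.5% and 20.3%. GAACA occurred there in 17 of 203 and 4 of 138 (8.37% and 2.90%), against 8.82% and 7.88%. AAACC occurred in 11 of 203 and 5 of 138 intron windows, against 7.42% and 6.74%, and CAT with any base but G after it in 141 and 108 of them, against 66.0% and 63.0%. These are counts of letters that were not tested against each other, and a match does not make a binding site.

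Further lists of related genes were counted in the same way. The first held 9 meiotic genes set here beside the synaptonemal complex and axis, not all of which encode parts of these structures. They were Six6os1, Hormad1, Hormad2, Trip13, Iho1, Majin, Terb1, Terb2 and Meikin. Of these 9, 2 had a significant cluster in replicate 1 and 7 in replicate 2. Significant clusters in both were found in 2 (Six6os1 and Hormad2), and a site significant in both in 0. Of 19 further cohesin and regulator genes, including Smc3, Rad21 and Nipbl, the numbers were 11, 16, 11 and 0. The shares given above were 46.1%, 64.6%, 39.1% and 16.6% of the protein-coding genes with clusters in both replicates, which holds for all 9 genes of the first list and for 17 of 19 of the second. Neither list had a shared site, while significant clusters in both replicates were found in 11 of 19 genes of the second. Their significant shares were 1.47% and 10.6% of clusters for the first list and 3.42% and 10.4% for the second, beside 4.92% and 13.2% of all clusters.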

How the data were processed

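IGF2BP3 IP and SMInput libraries of 2 replicates were compared. The authors trimmed adapters with cutadapt, removed ribosomal RNA reads with Bowtie2, aligned reads to mm10 with STAR, collapsed duplicates by molecular identifiers and called clusters with Clipper. The deposited log2 values are the ratio of IP to SMInput reads, each relative to its library. The −log10 column deposited beside it holds the P value the authors computed for that comparison; clusters without enrichment in the IP are at 0, and the highest value is 400. The P values of the authors were used as they stand, since no other values of the libraries were analysed here.

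Members and lists were chosen with earlier results of these data known. Named clusters were, for each gene, the site significant in both replicates, otherwise the significant cluster with the most IP reads, or the highest fold where none was significant. Regions came from basic transcripts of GENCODE M21. Positions were checked against GRCm38 chromosome lengths, and 0 clusters ran past an end.

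Read numbers were recovered as the whole numbers that return both listed values, by Fisher's exact test (two-sided) for low observed or expected numbers and by chi-square with Yates' correction for the rest. This rule and its tolerance were set on these data after earlier forms left more clusters unsolved. A single solution was found for 99.9% (replicate 1) and 99.7% (replicate 2) of the clusters between 0 and 400, and clusters at 0 had none. The library totals are the best of 7 candidate pairs in replicate 1 and 17 in replicate 2 and are estimates. The next best pair had the same ratio of IP to SMInput with larger totals, so the size of the totals is less certain than their ratio, on which the recovered reads mainly rest. A listed SMInput read of 1 may stand for 0. The procedure was tested on simulated data whose P values came from the same formulas, so the choice of formulas was not tested by it. Intervals of fold changes are exact conditional 95% intervals (Clopper-Pearson) and cover counting error alone, as do the Wilson intervals of shares and the upper limits at 0, which are 3 counts. Analyses used Python 3.11.15 with NumPy 2.4.6, SciPy 1.17.1, pandas 2.3.3, pysam 0.24.0 and matplotlib 3.10.9.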

Additional observations from a re-analysis of the deposited data

How the results depend on the processing

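The counts were small and moved with the thresholds. With both thresholds at 3, 1 member cluster was significant in replicate 1 and 2 in replicate 2, with 0 genes and 0 sites in both, and 0% of significant clusters in 3′UTRs in each replicate. With the fold threshold lowered to a log2 value of 1, the numbers were 20 and 29 clusters, 6 genes and 3 sites, and the 3′UTR share in replicate 2 was 34.5%. Adjusting the P values over all clusters by the Benjamini-Hochberg method left 6 clusters in replicate 1. Requiring at least 10 IP reads left 2 clusters in replicate 2, of which 50.0% were in the 3′UTR. Requiring the centre inside an exon left 3 clusters in replicate 1 and 1 in replicate 2, 1 gene in both, and a 3′UTR share of 100% in replicate 2. By the nearest transcription start site, 0 sites were shared and the 3′UTR share was 0% in each replicate, since the Syce2 site is then given to another gene. Under the same setting Sycp3 gained a significant cluster in replicate 2. Counting each replicate alone gave 4 to 5 genes and 10 to 14 sites, because overlap was then not asked for. For the other changes the cause was not tested. The Syce2 site stayed significant in both replicates with adjusted P values, with at least 10 IP reads, with any base inside the gene and with an overlap of 50% of both clusters.

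No paired analysis was possible because the results are counts that come from no test across samples; the pairing of an IP with the SMInput of its replicate is already part of each listed value.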

Other observations

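Germ cell and spermatocyte markers were listed to check the tissue, and those with a site significant in both replicates are named here after their values were seen. These were 3 of 6 germ cell markers (Dazl, Ddx4 and Acrv1) and 1 of 4 spermatocyte markers (Spo11), beside 16.6% of protein-coding genes with clusters in both replicates. Of the Sertoli and Leydig cell markers, 0 of 4 and 0 of 4 had such a site. Some of these had significant clusters in 1 replicate alone. In replicate 2 these were Wt1 with 6, Insl3 with 3 and Cyp11a1 with 1, and in replicate 1 Star with 1. Dazl, which encodes an RNA-binding protein of germ cells, had 14 of 24 clusters significant in replicate 1 and 10 of 20 in replicate 2, beside 4.92% and 13.2% of all clusters, with 3 sites significant in both. The log2(fold change) of the shared clusters reached 3.90 in replicate 1 and 3.73 in replicate 2. Ddx4 had 11 of 75 and 7 of 76 significant with 2 shared sites, whose log2(fold change) reached 2.42 and 2.48. Acrv1 had 5 of 15 and 3 of 8 with 1 shared site that reached 2.51 and 2.98. Spo11 had 2 of 20 and 2 of 16 with 1 shared site. The Spo11 site rested on few reads, 10 IP and 3 SMInput reads in replicate 1 and 9 and 8 in replicate 2. Its log2(fold change) was above the threshold of 2 in each replicate, but only just in replicate 2. The other spermatocyte markers, Dmc1, Meiob and Ccna1, had no shared site. Shared sites were thus found on several other germ cell transcripts of the same libraries, while Prm1, Prm2 and Tnp1 had no significant cluster.

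Several limits hold for the counts above. With 2 replicates and 10 to 14 significant clusters, shares have wide intervals, and clusters of the same gene are not independent. Intervals cover counting error within a library and not the difference between animals. Clusters listed at 0 have no recovered reads, so the exon clusters with intervals are the more enriched ones. Gene spans differ in length, so cluster numbers do not rank the genes by binding.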
